A study of Mus musculus with 10 samples.

Results

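Prostaglandin and leukotriene genes were examined as 10 genes, taken by symbol from the 56691 genes of the deposited table. They are the prostaglandin G/H synthases *Ptgs1* and *Ptgs2*, the PGE2 synthase *Ptges*, the prostaglandin-degrading enzyme *Hpgd*, the PGE2 receptors *Ptger2* and *Ptger4*, the lipoxygenases *Alox5* and *Alox15*, the 5-lipoxygenase activating protein *Alox5ap*, and the leukotriene C4 synthase *Ltc4s*. Prostaglandins and leukotrienes are lipid mediators made from arachidonic acid, which phospholipases A2 release from cell membranes. Cyclooxygenases, the products of *Ptgs1* and *Ptgs2*, open the prostaglandin branch, and 5-lipoxygenase together with its activating protein opens the leukotriene branch. In the colon, PGE2 is known both as a mediator of inflammation and as a signal for epithelial repair, while leukotrienes attract and activate leukocytes.

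RNA was sequenced from the colon of 10 male C57BL/6 mice, aged 8 weeks, 5 of the DSS group and 5 of the ceAF group. All of them drank dextran sulfate sodium (DSS), a compound that injures the colon epithelium and serves as a chemical model of ulcerative colitis, at 3% for 7 days. Mice of the ceAF group were afterwards given chick early amniotic fluid (ceAF) by gavage at 15 mL/kg for 10 days, and a vehicle gavage of the DSS group is not described. Mice without DSS were not analysed here, so each value below compares ceAF after DSS with DSS alone and asks whether these genes differ with ceAF. The reads counted on genes numbered 16275884 to 19901549 per mouse in the DSS group (median 16426125) and 14676471 to 18811795 in the ceAF group (median 16058782). Over the 20 pairs of libraries within groups, chi-square per gene lay between 14.7 and 149, where counting noise alone gives values near 1. Levels are given as counts scaled to normalized library size (CPM), and as FPKM, which also divides by gene length, wherever genes are compared with each other.

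Several libraries stood apart from the rest. On the principal component with the largest share of the variance, 30.8%, ceAF-1 lay at 93.5 and the other mice between −45.5 and 16.0. On the next component, with 19.4% of the variance, DSS-1 lay at 60.3 and DSS-5 at −45.8, at opposite ends. Mitochondrial transcripts took 9.66% of the counts in ceAF-1 and 9.74% in ceAF-5, against 4.53% to 7.24% in the other mice. DSS-1 was the mouse with the highest level in 16.0% of the genes tested and in 5 of the 10 prostaglandin and leukotriene genes. It was the lowest mouse in 11.5% of the genes tested and in 2 of the 10. ceAF-1 was the mouse with the lowest level in 21.0% of the genes tested and in 5 of the 10. It was also the highest mouse in 20.4% of the genes tested and in 1 of the 10. DSS-5 was the highest mouse in 14.9% and the lowest in 14.3% of the genes tested, and the lowest in 2 of the 10. Members and lists whose values turn on DSS-1 or ceAF-1 are therefore given with and without them, and the fit without both was chosen after seeing the data.

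Markers of colon tissue were present in every mouse. The 9 epithelial markers summed to between 10108 and 16804 CPM, and the 8 smooth muscle markers to between 1221 and 3013 CPM. Their most abundant genes per length were *Krt8*, a keratin, at a mean of 2178 FPKM and *Actg2*, a smooth muscle actin, at 204.3 FPKM. Markers of immune cells were uneven. The 10 neutrophil markers summed to between 125.9 and 1896 CPM in the DSS mice and between 21.6 and 250.8 in the ceAF mice. *Ly6g* was their most abundant gene per length, at a mean of 197.8 FPKM, and it did not follow the others, being highest in DSS-5. Without *Ly6g* the other 9 summed to 1667, 16.3, 182.2, 19.02 and 70.6 CPM in DSS-1 to DSS-5, and to 2.21, 13.8, 14.9, 46.2 and 20.2 in ceAF-1 to ceAF-5. DSS-1 was far above the rest and DSS-3 next, DSS-2 and DSS-4 lay within the ceAF range, and *Mmp8*, *Ngp* and *Camp* had no count in at least 1 mouse. *Retnlg*, a granule gene of mature neutrophils, stood at 263.2 CPM in DSS-1, 17.96 in DSS-3 and between 0.0763 and 4.36 in the other mice. The 8 T cell markers, with *Trac* the most abundant per length at a mean of 11.8 FPKM, summed to 90.8, 93.2, 91.5, 98.6 and 34.7 CPM in DSS-1 to DSS-5, and to 31.3, 50.7, 41.2, 21.9 and 27.4 in ceAF-1 to ceAF-5. Their log2 fold changes had a median of −1.23 and were negative in 8 of 8, 7 of them at an unadjusted p under 0.05 in edgeR's quasi-likelihood test.

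Position markers of the colon differed between samples as well. *Hox* genes are expressed by position along the gut, and the 4 *Hox* genes of the proximal colon list, with *Hoxb9* the most abundant per length, summed to 66.1, 134.7, 141.2, 133.5 and 70.7 CPM in DSS-1 to DSS-5 and to 270.4, 89.9, 118.9, 63.1 and 82.0 in ceAF-1 to ceAF-5. The 4 of the distal list, with *Hoxb13* the most abundant per length and *Hoxd12* and *Hoxd13* at no count in at least 1 mouse, summed to 162.8, 171.7, 141.9, 193 and 302.2 CPM in DSS-1 to DSS-5 and to 16.6, 435.7, 339.3, 98.6 and 272.6 in ceAF-1 to ceAF-5. By these sums ceAF-1 was the highest mouse in the proximal list and the lowest in the distal list. *Hoxb9*, between 57.0 and 112.2 CPM, was the largest part of each proximal sum, so the sums understate the spread of the others. Averaged as log2 CPM relative to each gene's mean, the proximal list stood at −1.52, 1.47, 1.74, 1.35 and −2.02 in DSS-1 to DSS-5. In ceAF-1 to ceAF-5 it stood at 2.72, −1.86, 0.912, −0.923 and −1.88. By the mean of log2 CPM relative to each gene's mean, ceAF-4 was the lowest in the distal list at −2.89, with *Hoxd12* and *Hoxd13* at 0 counts, and ceAF-1 was next at −2.53. In bulk tissue, fewer cells of a type and less RNA per cell cannot be told apart, which holds for every gene below.

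Of the 10 genes, 9 had enough counts to be tested, and *Alox15*, with 3 to 67 counts per mouse, did not. In edgeR's quasi-likelihood test 0 of the 16545 genes tested were called, which takes an adjusted p under 0.05 and a log2 fold change no smaller than 1 in size (0% called), and the smallest adjusted p was 0.656. At an unadjusted p under 0.05 the test found 1146 genes, 607 lower in the ceAF group (3.67% of those tested) and 539 higher (3.26%), while DESeq2 called 28 genes after adjustment, 27 of them lower. Among the 9 tested members, 8 were lower in the ceAF group and 1, *Hpgd*, was higher, and the median of their log2 fold changes was −0.59. Over all genes tested 8034 (48.6%) were lower, with a median of 0.0076. An unadjusted p under 0.05 was found for 3 members, *Ptgs2*, *Ptger2* and *Alox5ap*, all lower. The mice of the groups overlapped in every member, and 0 of the 9 had all ceAF mice below or all above the DSS mice. Of the genes tested, 77 had all ceAF mice below (0.465%) and 128 all above (0.774%).

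Leaving out DSS-1, 7 of the same 9 members were lower and 2 higher, with a median of −0.22, and 1 gene, *Ptger2*, had an unadjusted p under 0.05, as did 4.26% of all genes tested in that fit. Leaving out ceAF-1 gave 9 of 9 lower, a median of −0.49 and 3 such genes, against 11.2% of all genes tested. Without both, 7 were lower and 2 higher, with a median of −0.30 and 2 such genes, *Ptger2* and *Hpgd*, against 8.76% of all genes tested. The medians over all genes tested in these fits were 0.017, −0.0076 and 0.00095.

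**Figure D1:**
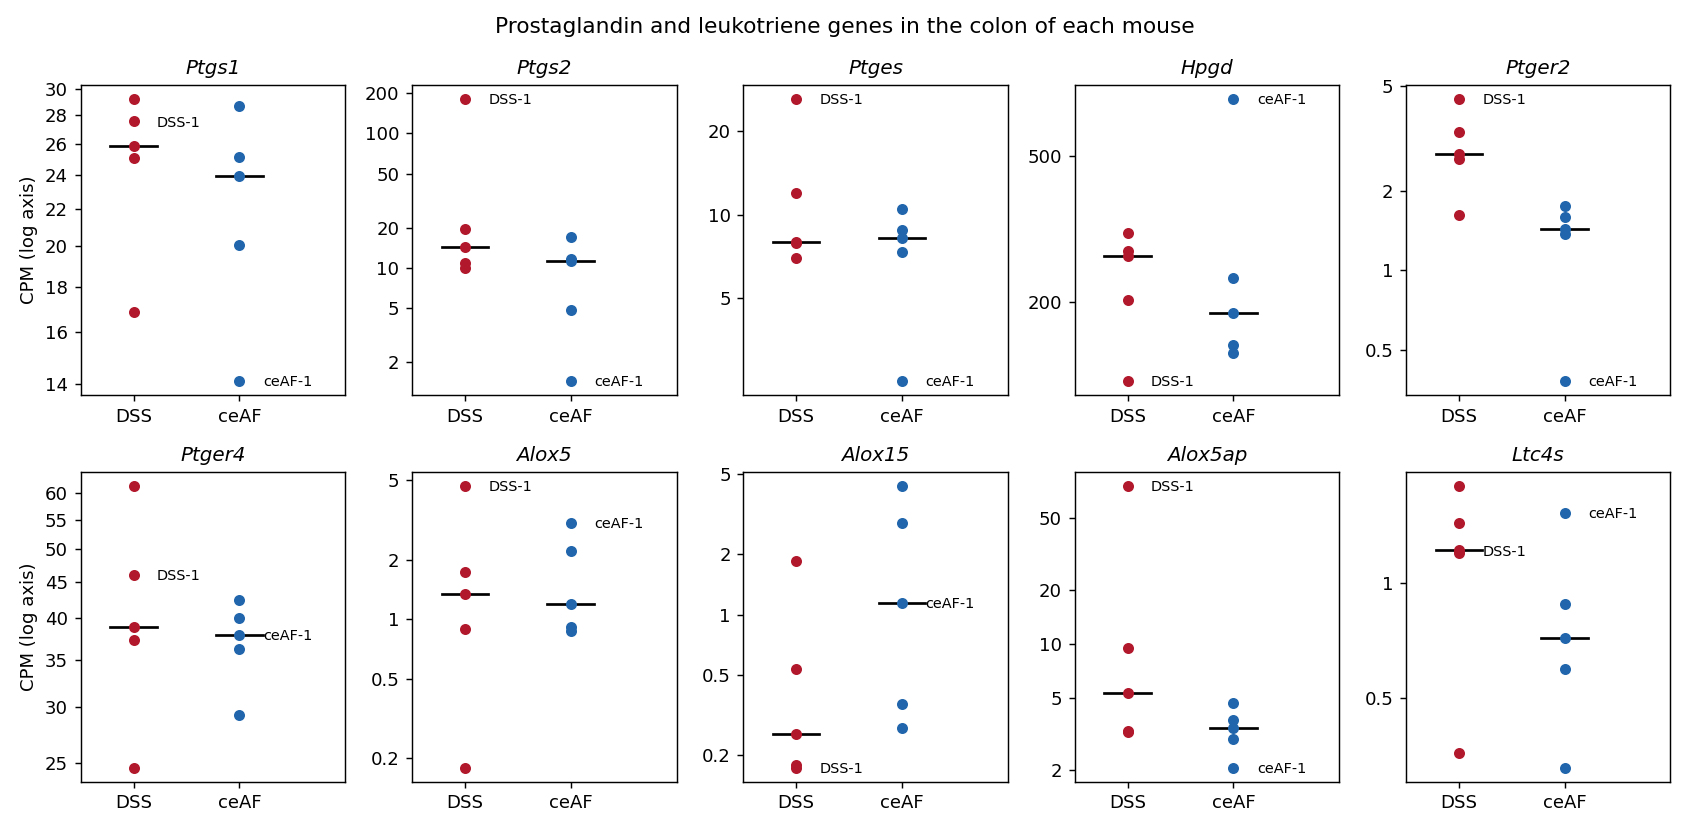
CPM on a log axis for each of the 10 genes, with 1 point per mouse, 5 DSS mice in red and 5 ceAF mice in blue, and a bar at the median of each group. DSS-1 and ceAF-1 are named: DSS-1 is the highest mouse for *Ptgs2*, *Ptges*, *Ptger2*, *Alox5* and *Alox5ap*, and ceAF-1 the highest for *Hpgd*.

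Per length, *Hpgd* was by far the most abundant of the 10, with a mean of 151 FPKM over the mice (range 75.3 to 380.2). The next were *Alox5ap* at 8.22, *Ptgs2* at 6.30, *Ptgs1* at 6.11 and *Ptger4* at 5.90 FPKM, means whose order is within the spread between mice. Without DSS-1 and ceAF-1 the mean was 3.21 FPKM for *Alox5ap* and 2.72 for *Ptgs2*, below *Ptgs1* at 6.31 and *Ptger4* at 5.84. *Ptges* followed at 2.54 FPKM over all mice and *Ltc4s* at 0.981. *Alox15*, *Ptger2* and *Alox5* were lowest, at 0.480, 0.415 and 0.414 FPKM, and their ranges over the mice overlapped.

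*Ptgs2* (ENSMUSG00000032487) encodes cyclooxygenase-2, the inducible enzyme that inflammatory signals switch on. Its level was 180.4, 10.8, 19.5, 14.4 and 9.96 CPM in DSS-1 to DSS-5, and 1.45, 16.9, 11.4, 11.6 and 4.89 CPM in ceAF-1 to ceAF-5. DSS-1 stood far above every other mouse, ceAF-1 far below, and the remaining mice of the groups overlapped. DSS mice averaged 47.0 ± 74.7 CPM and ceAF mice 9.24 ± 6.09 (SD, n = 5 each). The log2 fold change was −2.34 (standard error 0.92, unadjusted p = 0.0274 and adjusted p = 0.689 in edgeR's quasi-likelihood test), with 4 of 5 ceAF mice below the DSS median. In the two-sided exact permutation test over all 252 assignments of the mice p was 0.143. Without DSS-1 the log2 fold change was −0.56 (standard error 0.53, unadjusted p = 0.314, edgeR), and without ceAF-5 it was −2.18 (unadjusted p = 0.0611, edgeR). With the replicate block it was −1.14 (unadjusted p = 0.278, edgeR), though replicate numbers did not pair the mice. Limma-trend on FPKM gave −1.19 (unadjusted p = 0.104) at a pseudocount of 1 and −1.61 (unadjusted p = 0.0831) at 0.1. With DSS-1 and ceAF-1 both left out it was −0.30 (standard error 0.35, unadjusted p = 0.413, edgeR), and the means were 13.7 ± 4.31 CPM (SD, n = 4) and 11.2 ± 4.92 (SD, n = 4).

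*Ptgs1* (ENSMUSG00000047250), the cyclooxygenase that most tissues make constantly, varied far less. It ranged from 16.9 to 29.2 CPM in the DSS group and from 14.1 to 28.7 in the ceAF group, with DSS-5 and ceAF-1 the lowest of their groups. The means were 24.9 ± 4.78 and 22.4 ± 5.56 CPM (SD, n = 5 each), and the log2 fold change of −0.16 (standard error 0.20) had an adjusted p of 0.920 in edgeR's quasi-likelihood test. This log2 fold change was −0.028 without ceAF-1, −0.25 without DSS-5 and 0.0092 without DSS-1 and ceAF-1. Expressed per length, the ratio of *Ptgs2* to *Ptgs1* was 5.54 in DSS-1, 0.0862 in ceAF-1 and between 0.174 and 0.658 in the other mice. Transcripts of *Ptgs2* exceeded those of *Ptgs1*, in FPKM, in DSS-1 only.

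*Ptges* (ENSMUSG00000050737) encodes the inducible synthase that turns the cyclooxygenase product into PGE2. Its level was 26.2, 7.995, 7.004, 7.94 and 12.004 CPM in DSS-1 to DSS-5, and 2.52, 10.5, 8.23, 7.34 and 8.85 CPM in ceAF-1 to ceAF-5. The extremes were again DSS-1 and ceAF-1, and the remaining mice of both groups shared a range. The means were 12.2 ± 8.04 and 7.48 ± 3.003 CPM (SD, n = 5 each), with a log2 fold change of −0.70 (standard error 0.43, adjusted p = 0.769 in edgeR's quasi-likelihood test, exact permutation p = 0.317). Without DSS-1 it was −0.22 and without DSS-1 and ceAF-1 −0.0055 (standard error 0.20).

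*Hpgd* (ENSMUSG00000031613) encodes 15-hydroxyprostaglandin dehydrogenase, which inactivates PGE2 and is abundant in differentiated colon epithelium. Its level was 122 CPM in DSS-1, then 308.5, 275.3, 266.7 and 202.6 in DSS-2 to DSS-5, and 716.6, 187.1, 232.7, 152.4 and 145.6 CPM in ceAF-1 to ceAF-5. Here the same mice marked the opposite ends, with ceAF-1 the highest and DSS-1 the lowest of all. With every mouse included the means were 235.1 ± 73.9 and 286.9 ± 242.7 CPM (SD, n = 5 each), and the log2 fold change was 0.29 (standard error 0.45, adjusted p = 0.938 in edgeR's quasi-likelihood test, exact permutation p = 0.921). That direction came from ceAF-1, since 4 of the 5 ceAF mice were below the DSS median. Without ceAF-1 the log2 fold change was −0.39 (standard error 0.25, unadjusted p = 0.152, edgeR). Without DSS-1 as well it was −0.56 (standard error 0.18, unadjusted p = 0.0113 and adjusted p = 0.521, edgeR), with means of 263.3 ± 44.3 and 179.4 ± 39.9 CPM (SD, n = 4 each). The 5 mice with the highest sum of proximal *Hox* genes, ceAF-1, DSS-2, DSS-3, DSS-4 and ceAF-3, were also the 5 with the highest *Hpgd*. The part of colon position in the level of *Hpgd* was not tested.

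The balance of synthesis and breakdown, taken as the ratio of *Ptgs2* to *Hpgd* in FPKM, was 0.543, 0.0129, 0.0260, 0.0199 and 0.0181 in DSS-1 to DSS-5, and 0.000736, 0.0333, 0.0179, 0.0279 and 0.0124 in ceAF-1 to ceAF-5. DSS-1 and ceAF-1 lay at the far ends, and the other mice of the groups overlapped, with group medians of 0.0199 and 0.0179.

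*Ptger2* (ENSMUSG00000037759) encodes EP2, a PGE2 receptor that raises cyclic AMP in leukocytes and stromal cells. Its level was 4.46, 3.35, 1.62, 2.75 and 2.64 CPM in DSS-1 to DSS-5, and 0.382, 1.76, 1.59, 1.37 and 1.43 CPM in ceAF-1 to ceAF-5. All ceAF mice were below the DSS median, and the groups overlapped only through DSS-3, which was under ceAF-2. The means were 2.96 ± 1.04 and 1.31 ± 0.538 CPM (SD, n = 5 each), from 5 to 77 counts per mouse, so counting error is part of this spread. The log2 fold change was −1.17 (standard error 0.38, unadjusted p = 0.00998 and adjusted p = 0.656 in edgeR's quasi-likelihood test). The two-sided exact permutation test gave p = 0.0159, where the smallest possible value is 0.00794. Without DSS-1 the log2 fold change was −0.97, without ceAF-1 −0.95 and without both −0.76 (standard error 0.27, unadjusted p = 0.0191, edgeR). *Ptger2* was the member whose unadjusted p stayed under 0.05 in each of the 18 alternative analyses, although limma-trend on FPKM at a pseudocount of 1, which understates differences of low genes, gave a log2 fold change of −0.32. The 8 T cell markers were lower in the ceAF group as well, with a median log2 fold change of −1.23 over all mice and −1.10 without DSS-1 and ceAF-1 (8 of 8 lower, 5 at an unadjusted p under 0.05 in edgeR's test). DSS-1, DSS-2 and DSS-4 were above every ceAF mouse both in *Ptger2* and in the sum of these markers, DSS-3 in the markers only and DSS-5 in *Ptger2* only. Of the 10 macrophage markers, with *C1qa* the most abundant per length, 9 were lower with ceAF and 1, *Mertk*, was higher. The macrophage log2 fold changes had a median of −0.49, and −0.19 without DSS-1 and ceAF-1. The 9 markers other than *Mertk* summed to 205.96, 146.4, 158, 161.3 and 106.4 CPM in DSS-1 to DSS-5 and to 47.8, 125.7, 150.8, 99.2 and 120.3 in ceAF-1 to ceAF-5, with ceAF-1 the lowest mouse and DSS-1 the highest, as for *Ptger2*. With *Mertk*, at 144.9 CPM in ceAF-1, the sum was between 155.2 and 259.5 CPM in every mouse. These extremes were not particular to macrophages. DSS-1 was also the highest mouse and ceAF-1 the lowest in the summed markers of neutrophils, B cells (235.6 and 8.47 CPM), fibroblasts (1123 and 175.4) and endothelium (134.2 and 35.3). The part of these cells in the difference of *Ptger2* was not tested.

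*Ptger4* (ENSMUSG00000039942) encodes EP4, the other receptor coupled to cyclic AMP, present on epithelium and leukocytes. It ranged from 24.7 to 61.4 CPM in the DSS group and from 29.2 to 42.4 in the ceAF group, with DSS-4 the highest mouse and DSS-5 the lowest. The means were 41.6 ± 13.5 and 37.2 ± 5.01 CPM (SD, n = 5 each), and the log2 fold change was −0.16 (standard error 0.21, adjusted p = 0.920 in edgeR's quasi-likelihood test) and 0.019 without DSS-4. *Ptger4* overlaps *Ttc33* on the opposite strand in the deposited positions, with 6594 and 4118 counts in all, and the strand used in counting is not given in the sources used here. Its level is therefore uncertain to the extent that reads of the overlap were counted for either gene. For *Hpgd*, the overlapping gene *Gm45540* on the same strand had 571 counts against 42131. On the opposite strand, *Gm26542* had 31 counts against 166 for *Ltc4s*, and *Gm17173* had 34 against 368 for *Ptger2*.

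*Alox5ap* (ENSMUSG00000060063) encodes FLAP, the membrane protein that presents arachidonic acid to 5-lipoxygenase. Its level was 75.5, 3.30, 9.52, 5.32 and 3.24 CPM in DSS-1 to DSS-5, and 2.06, 4.69, 3.78, 3.40 and 2.97 CPM in ceAF-1 to ceAF-5. DSS-1 was far above the others and DSS-3 came next, while DSS-2 and DSS-5 lay within the ceAF range. The means were 19.4 ± 31.5 and 3.38 ± 0.972 CPM (SD, n = 5 each), and all 5 ceAF mice were below the DSS median. The log2 fold change was −2.51 (standard error 0.88, unadjusted p = 0.0152 and adjusted p = 0.656 in edgeR's quasi-likelihood test, exact permutation p = 0.119). Without DSS-1 it was −0.65 (standard error 0.36, unadjusted p = 0.0992, edgeR), and without DSS-1 and ceAF-1 −0.53 (standard error 0.36). With the replicate block, whose numbers did not pair the mice, it was −1.14 (unadjusted p = 0.191, edgeR). Limma-trend on FPKM gave −1.16 (unadjusted p = 0.114) at a pseudocount of 1 and −1.36 (unadjusted p = 0.101) at 0.1. DSS-1 and DSS-3 were also the highest mice for most neutrophil markers, *Retnlg* among them. Of the neutrophil markers 7 were tested and 7 were lower with ceAF, and their log2 fold changes had a median of −3.94 over all mice and −1.07 without DSS-1. The part of neutrophils in the levels of *Alox5ap* and *Ptgs2* was not tested.

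*Alox5* (ENSMUSG00000025701), 5-lipoxygenase itself, did not share that pattern. Its level was 4.69, 1.35, 0.898, 1.73 and 0.180 CPM in DSS-1 to DSS-5, and 3.05, 0.911, 0.877, 1.19 and 2.199 CPM in ceAF-1 to ceAF-5. DSS-1 and ceAF-1 were both high here, DSS-5 was the lowest at 3 counts, and every ceAF mouse lay within the DSS range. The log2 fold change was −0.11 (standard error 0.65, adjusted p = 0.984 in edgeR's quasi-likelihood test), 0.66 (standard error 0.57) without DSS-1 and −0.44 without ceAF-1. Tuft cells, an epithelial type known to express *Alox5* and *Ptgs1*, were followed by 10 markers, of which 8 were tested, 3 lower and 5 higher. They summed to 56.3, 51.6, 37.4, 50.2 and 17.9 CPM in DSS-1 to DSS-5 and to 61.8, 35.2, 34.9, 38.2 and 44.1 in ceAF-1 to ceAF-5. By the mean of log2 CPM relative to each gene's mean, ceAF-1 was the highest mouse at 0.834, DSS-5 the lowest at −1.49 and DSS-1 the next lowest at −0.39. Among these markers *Il25*, *Gnat3* and *Gng13* had no count in at least 1 mouse. DSS-5 was the lowest of its group in these markers, in *Alox5*, in *Ptgs1* and in *Ltc4s*, and the part of tuft cells in those levels was not tested.

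*Ltc4s* (ENSMUSG00000020377) joins glutathione to the leukotriene precursor to make leukotriene C4, the parent of the cysteinyl leukotrienes. It ranged from 0.360 to 1.79 CPM in the DSS group and from 0.329 to 1.53 in the ceAF group, from 6 to 28 counts per mouse. The means were 1.201 ± 0.528 and 0.809 ± 0.448 CPM (SD, n = 5 each), and the log2 fold change was −0.59 (standard error 0.45, adjusted p = 0.838 in edgeR's quasi-likelihood test). ceAF-1 was the highest ceAF mouse, and without it the log2 fold change was −0.92 (standard error 0.44, unadjusted p = 0.0645, edgeR). Without ceAF-3, the lowest mouse, it was −0.37 (unadjusted p = 0.426, edgeR), without DSS-4, the highest, −0.40 (unadjusted p = 0.425, edgeR), and the other fits that left out 1 mouse lay between these values and −0.92. Mast cells, a known source of leukotriene C4, had 10 markers, with *Kit* the most abundant per length, and 3 of the 4 tested were lower. All 10 markers summed to 52.7, 57.7, 49.3, 50.9 and 33.3 CPM in DSS-1 to DSS-5 and to 43.3, 39.6, 44.1, 54.3 and 39.7 in ceAF-1 to ceAF-5, and *Mcpt4*, *Cma1*, *Tpsb2*, *Ms4a2* and *Fcer1a* had no count in at least 1 mouse. *Kit* made up most of each sum, and the other 9 summed to 10.2, 11.5, 8.80, 9.73 and 5.34 CPM in DSS-1 to DSS-5 and to 4.04, 11.6, 10.3, 18.9 and 6.21 in ceAF-1 to ceAF-5. Without *Kit* ceAF-4 was the highest mouse and ceAF-1 the lowest, while ceAF-1 was the highest ceAF mouse in *Ltc4s*. The part of mast cells in *Ltc4s* was not tested.

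*Alox15* (ENSMUSG00000018924), a lipoxygenase that also makes precursors of inflammation-resolving lipids, was too low for the test across genes with all mice included. Its level was 0.174, 1.85, 0.539, 0.256 and 0.180 CPM in DSS-1 to DSS-5, and 1.14, 4.36, 2.85, 0.358 and 0.275 CPM in ceAF-1 to ceAF-5. ceAF-2 and ceAF-3 were the highest mice, followed by DSS-2, and the groups overlapped. DSS mice averaged 0.600 ± 0.714 CPM and ceAF mice 1.80 ± 1.77 (SD, n = 5 each), and the two-sided exact permutation p was 0.183. It entered the test in 6 of the 10 fits that left out 1 mouse (DSS-1, DSS-3, DSS-4, DSS-5, ceAF-4 or ceAF-5), with log2 fold changes of 1.30 to 1.82 and unadjusted p of 0.0519 to 0.177 (edgeR). ceAF-2 and ceAF-3 also had the highest sums of distal *Hox* genes, and the part of colon position was not tested. The 5 eosinophil markers, of a cell type known to express *Alox15* in some tissues, had *Il5ra* as their most abundant gene per length and summed to between 3.19 and 11.5 CPM per mouse, with *Ccr3* and *Epx* at no count in at least 1 mouse.

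**Figure D2:**
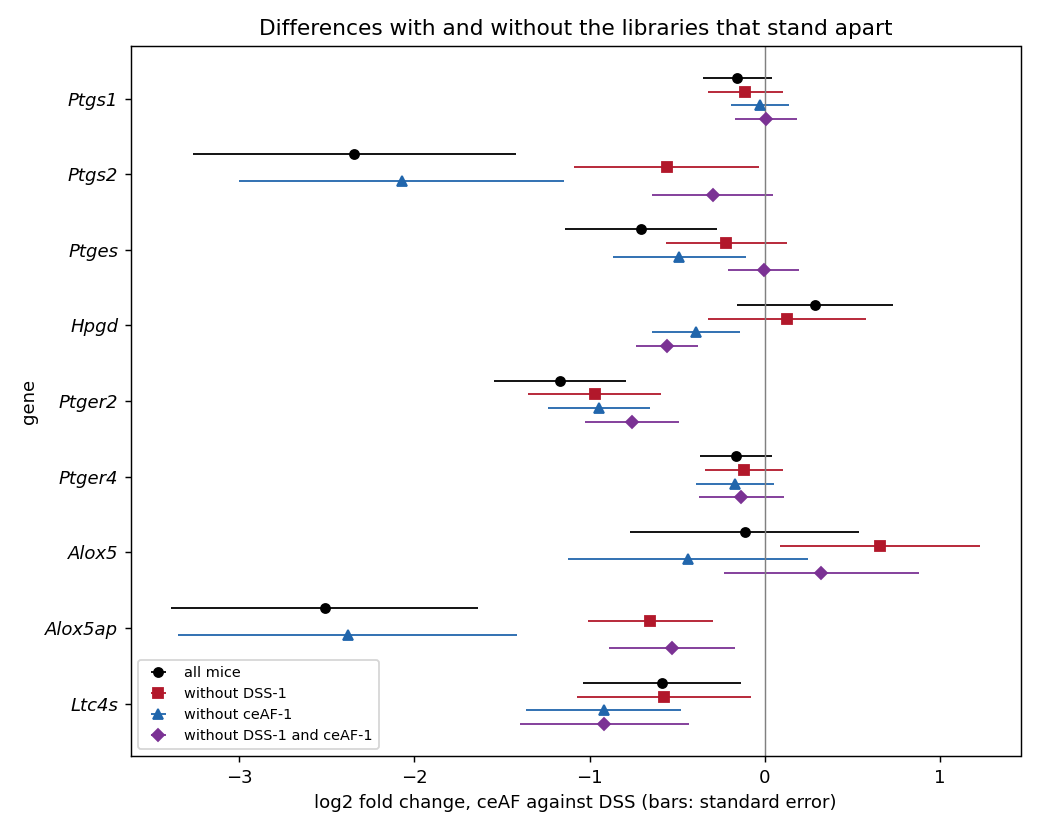
Log2 fold change of ceAF against DSS for the 9 genes tested, with bars of 1 standard error from edgeR's quasi-likelihood fit, over all mice and without DSS-1, ceAF-1 or both. *Ptgs2* and *Alox5ap* move from −2.34 and −2.51 to −0.56 and −0.65 without DSS-1, *Hpgd* crosses zero without ceAF-1, and *Ptger2* lies between −1.17 and −0.76 in the 4 fits shown.

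Relations between members were computed for 6 pairs over the 10 mice on log2 CPM, with permutation tests of 100000 resamples, and in 0 of the 6 did the adjusted p of Pearson's r pass 0.05. *Ptgs2* and *Ptges* had Pearson's r = 0.882 (permutation p = 0.0176, adjusted p = 0.105) but Spearman's rho = 0.212 (permutation p = 0.562, adjusted p = 0.674). Without DSS-1 and ceAF-1, the mice farthest from the median, r was −0.22, so this relation rests on them. *Ptgs2* and *Hpgd* had r = −0.67 (permutation p = 0.0601, adjusted p = 0.120) and rho = −0.32 (permutation p = 0.366, adjusted p = 0.674), and r was 0.543 without the same mice. *Ptgs1* and *Ptgs2* had r = 0.648 (permutation p = 0.0486, adjusted p = 0.120) and rho = 0.709 (permutation p = 0.0259, adjusted p = 0.155), and r was 0.381 without DSS-5 and ceAF-1. *Alox5* and *Alox5ap*, whose proteins act together, had r = 0.413 (permutation p = 0.219, adjusted p = 0.329) and rho = −0.030 (permutation p = 0.946, adjusted p = 0.946), and r was −0.67 without DSS-1 and DSS-5. The remaining pairs, *Alox5ap* with *Ltc4s* and *Ptger2* with *Ptger4*, had r of 0.263 and 0.183 (permutation p = 0.508 and 0.596, both adjusted to 0.596) and rho of 0.212 and 0.285 (permutation p = 0.560 and 0.427, both adjusted to 0.674). Without the farthest mice these were −0.058 and 0.15.

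Among 13617 named genes with a mean of at least 1 CPM, those most like *Ptgs2* over the 10 mice were *Fcgr3* (r = 0.985), *Entpd1* (r = 0.979) and *Msn* (r = 0.975). Without DSS-1 and ceAF-1 these correlations were 0.861, 0.786 and 0.723. *Fcgr3* encodes an antibody receptor of myeloid cells, *Entpd1* an enzyme that breaks down extracellular ATP, and *Msn* a protein that links membrane and cytoskeleton. Closest to *Alox5ap* were *Hcar2* (r = 0.985), *Adam8* (r = 0.983) and *Itgam* (r = 0.980), the last of which encodes CD11b, an integrin of myeloid cells, with 0.931, 0.835 and 0.815 without those mice. Closest to *Hpgd* were the cytochrome P450 gene *Cyp3a13* (r = 0.986), the kinase gene *Csnk2a1* (r = 0.975) and the phosphoglucomutase gene *Pgm1* (r = 0.971), with 0.961, 0.954 and 0.892 without them. These correlations describe the 10 libraries and have no test. The genes were picked for the highest r over the same mice, so the values without DSS-1 and ceAF-1 are no independent check.

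**Figure D3:**
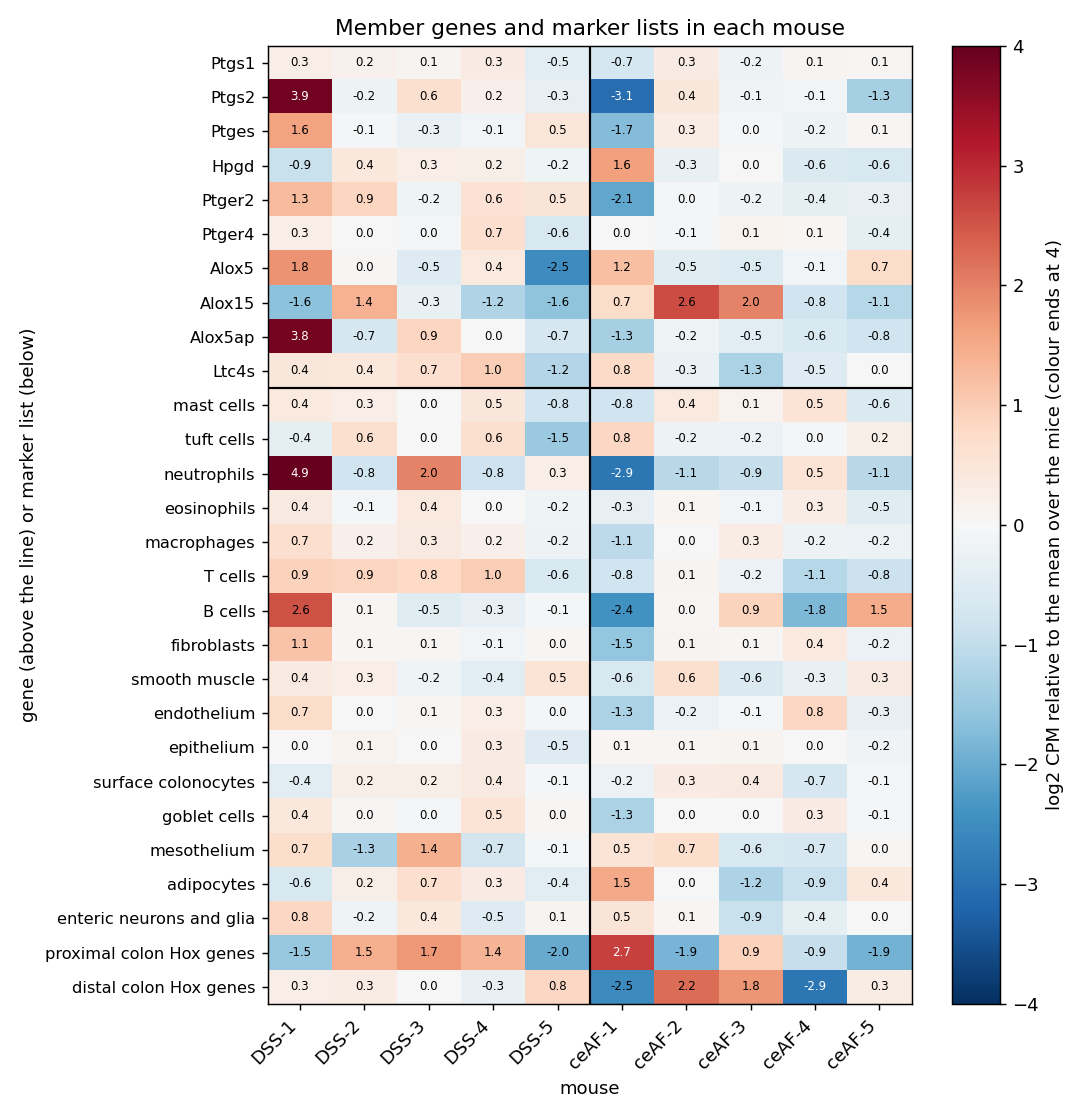
Log2 CPM of the 10 genes (above the line) and mean log2 CPM of each marker list (below), each relative to its mean over the 10 mice, 1 column per mouse, DSS on the left and ceAF on the right. DSS-1 is the highest mouse for *Ptgs2*, *Alox5ap* and the neutrophil markers, and ceAF-1 the highest for *Hpgd* and the proximal colon *Hox* genes.

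Across the other marker lists, several medians of the log2 fold change turned on DSS-1 and ceAF-1. Over all mice every one of the 8 markers tested was lower for B cells (median −0.71), fibroblasts (−0.37), endothelium (−0.35) and smooth muscle (−0.17). Without both mice the medians were 0.753 for B cells (0 of 8 lower), 0.038 for fibroblasts (4 of 8), 0.025 for endothelium (3 of 8) and 0.0018 for smooth muscle (4 of 8). For the proximal *Hox* list the median was 0.120 over all mice (1 of 4 lower), −1.72 without ceAF-1 (3 of 4) and −2.005 without both (3 of 4). For the distal list it was −0.0081 (2 of 3 lower), 0.301 without ceAF-1 (0 of 3) and 0.354 without both (0 of 3). *Hpgd* was likewise lower in the fits without ceAF-1 and without both.

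The tuft cell median was 0.333 over all mice (3 of 8 lower) and −0.11 without both (6 of 8), and the adipocyte median 0.107 (1 of 3) and −0.41 (3 of 3). Mast cells had −0.18 (3 of 4 lower) and 0.025 (2 of 5), mesothelium −0.44 (2 of 2) and −0.24 (1 of 2), and eosinophils −0.0069 (1 of 2) and 0.043 (1 of 2). Enteric neurons and glia had −0.22 (6 of 8 lower) over all mice, 0.092 without DSS-1 (4 of 8) and −0.19 without both (5 of 8). Goblet cells had −0.29 (6 of 7) over all mice and −0.045 (6 of 7) without both, epithelium 0.074 (4 of 9) and 0.048 (3 of 9), and surface colonocytes −0.0063 (4 of 8) and 0.043 (4 of 8).

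Other genes of the pathway were followed through a list of 63, of which 62 were in the table and 47 were tested. With ceAF 23 were lower and 24 higher, their median difference on the log2 scale was 0.0027, and 2 had an unadjusted p under 0.05 in edgeR's quasi-likelihood test, both lower, while 0 passed after adjustment. These are 4.26% of the list, against 6.93% of all genes tested at that p. The count was 0 without DSS-1 (4.26% of all genes), 5 without ceAF-1 (10.6% of the list, 11.2% of all genes) and 4 without both (8.51% and 8.76%). Over the 10 fits that left out 1 mouse it was between 0 and 5, and the share of the list was above that of all genes in 4 of them. Without ceAF-1 the genes were *Fpr2*, the prostaglandin exporter *Abcc4* (log2 fold change 0.726, unadjusted p = 0.00637, edgeR), the reductase *Ptgr1* (0.449, unadjusted p = 0.00651), the gamma-glutamyltransferase *Ggt1* (−1.08, unadjusted p = 0.00638) and the cytosolic phospholipase *Pla2g4a* (0.329, unadjusted p = 0.00757), with adjusted p from 0.373 to 0.432 in edgeR's test. Without both they were the same genes except *Fpr2*. In fits that left out another mouse, an unadjusted p under 0.05 was also found for *Ggt5* and *Cyp4f18* (3 fits each), *Cbr1* (2 fits), *Pla2g2d* and *Pla2g5* (1 fit each) and for the leukotriene receptors given below. Over the 10 fits the log2 fold change was −0.81 to −0.39 for *Ggt5*, which cleaves leukotriene C4, −1.73 to −0.37 for *Cyp4f18*, a cytochrome P450 that oxidizes leukotriene B4, and 0.325 to 0.558 for *Cbr1*. It was −1.33 to −0.53 for *Pla2g2d* and 0.137 to 0.667 for *Pla2g5*, both secreted phospholipases A2. Of the 14 phospholipases A2 tested, which supply arachidonic acid, 6 were lower and 8 higher, and *Pla2g10* was the most abundant per length at 54.5 FPKM. Other prostanoid synthases had 4 of 7 lower with a median of −0.033, led by *Ptges3*, a constant PGE2 synthase and chaperone partner, at 50.7 FPKM. Other prostanoid receptors had 1 of 4 lower, the EP3 gene *Ptger3*, which was also the most abundant at 1.02 FPKM. Their median was 0.055 over all mice and 0.230 without DSS-1. It was −0.11 without DSS-4 and −0.037 without ceAF-5, with 3 of 4 lower in each of these fits. Transport and breakdown genes had 1 of 6 lower with a median of 0.236, led by the carbonyl reductase *Cbr1* at 90.4 FPKM.

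On the leukotriene side, 3 of 8 further genes of synthesis and breakdown were lower, with a median of 0.045, and 6 of 8 without DSS-1 and ceAF-1, with a median of −0.15. The glutathione transferase *Mgst3* was the most abundant at 354.3 FPKM. Among other lipoxygenases only *Alox12*, at 0.219 FPKM, was tested, with a log2 fold change of −0.0070. All 4 leukotriene receptors tested were lower, with a median of −0.44 over all mice and −0.29 without DSS-1 and ceAF-1, and in these fits none had an unadjusted p under 0.05 in edgeR's test. With 1 mouse left out, *Ltb4r1* had one without DSS-4 (log2 fold change −0.73, unadjusted p = 0.0447, edgeR) and without ceAF-4 (−0.79, unadjusted p = 0.0321), and *Cysltr2*, a cysteinyl leukotriene receptor, without DSS-5 (−0.68, unadjusted p = 0.0137). *Ltb4r1*, the high-affinity receptor of leukotriene B4, was the most abundant of them at 1.93 FPKM. All 3 tested receptors of resolving lipids were lower, with a median of −1.01 over all mice and −0.76 without both. The most abundant over all mice was *Fpr2* at 3.48 FPKM. Without DSS-1 and ceAF-1 its mean was 1.52 FPKM, below *Gpr18* at 1.795.

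The 2 genes of the list with an unadjusted p under 0.05 over all mice are given as values. *Fpr2*, a formyl peptide and lipoxin receptor of phagocytes, stood at 27.7, 1.25, 4.97, 1.47 and 2.16 CPM in DSS-1 to DSS-5 and at 0.534, 2.54, 1.32, 1.55 and 0.440 in ceAF-1 to ceAF-5. DSS-1 was far above the others, DSS-3 next, and the groups overlapped. Its log2 fold change was −2.55 (standard error 0.91, unadjusted p = 0.0173 and adjusted p = 0.656, edgeR) and −0.94 without DSS-1 (standard error 0.56, unadjusted p = 0.124, edgeR), the only one of the 10 mice without which p was not under 0.05. *Gpr18*, a receptor of lymphocytes and myeloid cells, stood at 4.58, 4.25, 4.43, 3.71 and 1.44 CPM in DSS-1 to DSS-5 and at 1.45, 2.67, 2.52, 0.537 and 1.92 in ceAF-1 to ceAF-5. DSS-1 to DSS-4 were above every ceAF mouse and DSS-5 was within the ceAF range, as in the T cell markers. Its log2 fold change was −1.01 (standard error 0.42, unadjusted p = 0.0346 and adjusted p = 0.695, edgeR) and −0.92 without DSS-1 (standard error 0.45, unadjusted p = 0.0684, edgeR), and p was under 0.05 in 3 of the 10 fits that left out 1 mouse, those without DSS-5, ceAF-2 or ceAF-3.

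RefSeq promoter sequence was at hand for 8 of the 10 genes, missing for *Alox5ap* and *Alox15*. DSS-1 and ceAF-1 were the extreme mice for *Ptgs2*, *Ptges*, *Hpgd* and *Ptger2*, in the reverse order for *Hpgd*. The 250 bases before the start of each of these genes are shown. In GRCm38.p6 they are chr1:150099781-150100030 (plus strand), chr2:30903298-30903547 (minus strand), chr8:56294302-56294551 (plus strand) and chr14:44987861-44988110 (plus strand), and each is written 5′ to 3′ on the gene's strand. Capitals mark matches, on either strand, to a TATA box (TATAAA), a C/EBP type site (TTGNNCAA) and a GC box (GGGCGG), whose matches do not overlap in the sequences shown. Of 32851 promoters of this length, 12.4% hold the TATA letters, 5.65% the C/EBP type letters and 32.7% the GC box letters. Among the 8 genes, the C/EBP type letters were found in *Ptgs2*, the GC box letters in *Ptgs2*, *Ptges*, *Hpgd*, *Ptger4* and *Alox5*, and the TATA letters in none. A match describes letters in this window and does not show that a factor binds there.
Ptgs2: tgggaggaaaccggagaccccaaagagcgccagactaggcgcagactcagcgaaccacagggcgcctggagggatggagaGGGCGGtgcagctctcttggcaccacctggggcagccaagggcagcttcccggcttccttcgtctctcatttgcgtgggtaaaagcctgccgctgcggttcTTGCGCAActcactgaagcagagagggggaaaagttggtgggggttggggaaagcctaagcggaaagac
Ptges: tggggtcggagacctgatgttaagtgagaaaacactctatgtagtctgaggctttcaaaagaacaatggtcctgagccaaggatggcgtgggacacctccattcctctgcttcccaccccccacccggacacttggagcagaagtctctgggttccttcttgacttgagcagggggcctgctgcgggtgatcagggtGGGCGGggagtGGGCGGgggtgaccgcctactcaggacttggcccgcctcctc
Hpgd: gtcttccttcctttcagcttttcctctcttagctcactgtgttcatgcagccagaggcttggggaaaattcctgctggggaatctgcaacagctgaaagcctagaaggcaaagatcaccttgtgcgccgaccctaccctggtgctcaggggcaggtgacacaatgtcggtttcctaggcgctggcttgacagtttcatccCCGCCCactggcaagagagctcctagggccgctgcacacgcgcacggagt
Ptger2: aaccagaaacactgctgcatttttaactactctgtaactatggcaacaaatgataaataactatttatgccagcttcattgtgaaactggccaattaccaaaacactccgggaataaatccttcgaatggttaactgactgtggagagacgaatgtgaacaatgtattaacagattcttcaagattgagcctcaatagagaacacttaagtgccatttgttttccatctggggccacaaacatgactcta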

How the data were processed

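Colon RNA of 5 DSS mice and 5 ceAF mice was compared, with groups and numbers taken from the sample labels. The authors deposited, for each gene and mouse, a count of reads without normalization and an FPKM, and 100% of the deposited FPKM values lay within 2% plus 0.01 FPKM of the count divided by exonic length and library total. The submitters' processing notes list cutadapt 1.9.1 and HISAT2 2.2.1. The genome build, the counting program and its use of strand are not given in the sources used here, so deposited positions served only to find overlapping genes.

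From the counts, genes were kept by filterByExpr (minimum count 10) and libraries scaled by TMM. Groups were compared by the two-sided quasi-likelihood test of edgeR 4.0.16 in R 4.3.3, with Benjamini-Hochberg adjustment over all genes kept. CPM are TMM-normalized, log2 CPM add a prior count of 1, and a marker list's score is the mean of its genes' log2 CPM relative to each gene's mean. Exact permutation tests on log2 CPM were two-sided. DESeq2 1.42.0, limma 3.58.1 (limma-trend on FPKM), upper quartile scaling, other filters, the replicate block and leaving out mice were alternatives. Python 3.11.15, scipy 1.17.1 and matplotlib 3.10.9 were also used.

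Every one of the 10 genes was named. Of the other pathway genes, those with an unadjusted p under 0.05 over all mice and the most abundant of each role by FPKM were named, and of the genes most alike, the closest 3 for *Ptgs2*, *Hpgd* and *Alox5ap*. Details of other pathway and marker genes were chosen after their values were seen. The members and lists were chosen with earlier results of these data known. The level of 1 further marker gene is not reported here. Promoters came from RefSeq, in GRCm38.p6.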

Additional observations from a re-analysis of the deposited data

Results flagged for a closer look

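In 6 of 22 comparisons of a group's 5 mice, for the 10 genes and the total count, the highest or lowest mouse was separated from its nearest neighbour by more than 0.71 of the group's range, Dixon's critical value. Chance alone gives about 1 in 20 such groups, or 1.1 here, and the comparisons share mice. On log2 CPM the gap was 0.769 of the range for *Ptgs2* in DSS-1, the highest DSS mouse. For *Ptgs1* and *Ltc4s* the gap was 0.723 and 0.740, with DSS-5 the lowest DSS mouse in each. ceAF-1 was separated as the lowest ceAF mouse for *Ptges*, at 0.749, and for *Ptger2*, at 0.832. The total count of DSS-2, the highest of its group, had a gap of 0.908.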

How the results depend on the processing

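After adjustment, genes called numbered 28 with DESeq2 and 0 to 3 when each mouse was left out in turn (3 without DSS-5), against 0 otherwise. Genes at an unadjusted p under 0.05 numbered 1733 with no filter on low counts, which tests more genes, 694 with the replicate block, and 712 (without DSS-1) to 1872 (without ceAF-1) when each mouse was left out. Members at an unadjusted p under 0.05 numbered 1 with DESeq2. It gave log2 fold changes of −2.35 for *Ptgs2* and −2.52 for *Alox5ap* but no p, so its count leaves them out. The number of members was 1 with limma-trend on FPKM at either pseudocount and with the replicate block, and 1 to 3 when each mouse was left out. Replicate numbers did not pair the mice: the deviations of same-numbered mice correlated at −0.25, −0.14, −0.0043, −0.16 and 0.286, and the best partner had the same number for number 5 only. *Ptgs2*, *Ptges*, *Ptger2*, *Alox5ap* and *Ltc4s* were lower in all 18 alternatives. Leaving out each mouse gave log2 fold changes of −0.39 to 0.45 for *Hpgd*, −0.29 to 0.019 for *Ptger4* (higher without DSS-4) and −0.44 to 0.66 for *Alox5*. Signs also turned for *Hpgd* (−0.037) and *Alox5* (0.130) with the replicate block, for *Alox5* (0.140) at a pseudocount of 0.1, and without DSS-1 and ceAF-1 for *Ptgs1* (0.0092), *Hpgd* (−0.56) and *Alox5* (0.324). Correlations turned for *Alox5* with *Alox5ap* (rho −0.030) and, without the farthest mice, for that pair (−0.67), *Alox5ap* with *Ltc4s* (−0.058), *Ptgs2* with *Ptges* (−0.22) and *Ptgs2* with *Hpgd* (0.543). The causes were not tested. *Alox5*, *Alox15*, *Ltc4s* and *Ptger2* had under 100 counts in every mouse, so counting error limits them most.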
